A study of Mus musculus with 43 samples.

Results

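The AP-1 family was followed here through 9 genes, Jun, Junb, Jund, Fos, Fosb, Fosl2, Batf, Batf3 and Atf3, in CD4 T cells that had met antigen for different times and at different doses. The genes were chosen by name, with earlier results of these data known. Each was read from 1 probe set of a microarray, the one with the highest mean over all 43 arrays among those annotated with a single gene symbol, and all 9 were measured, out of 22180 genes in all. Of the 9, 7 had a mean above 3.34, the median of all signals, in at least 1 group. Fos and Batf lie near each other on chromosome 12 (GRCm38.p6, chr12:85473890-85477274 and chr12:85686720-85709087), and so do Batf3 and Atf3 on chromosome 1 (chr1:191098414-191108943 and chr1:191170296-191183333). Jun lies at chr4:95049036-95052222.

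AP-1 is a family of transcription factors that bind DNA as pairs through a leucine zipper. Jun proteins can pair with themselves or with Fos proteins, while Batf proteins and Atf3 pair with Jun proteins and lack the strong activating region of Fos. In T cells, receptor signalling through MAP kinases induces Fos and Jun within minutes, AP-1 joins NFAT at composite sites of cytokine genes, and Batf with Jun proteins joins Irf4 at another kind of composite site. Several of these genes are also induced by stress and by the handling of cells.

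The T cells carried the AND receptor transgene, which sees a moth cytochrome c peptide, lacked Rag2 and bore CD45.1. They were transferred into recipients and recovered by sorting on the surface markers CD4, CD90.2 and CD45.1. iMCC recipients carry a pair of transgenes through which doxycycline in the drinking water switches on the peptide, in dendritic cells. They received anti-CD40 antibody before the transfer and 100 µg/ml doxycycline until day 3. Then the day 10 groups received 0 (none, n = 5), 10 (low, n = 5) or 100 µg/ml (int, n = 4), and the day 30 groups likewise 0 (none), 10 (low) or 100 µg/ml (int, n = 5 each). A day 30 group called off (n = 5) was kept at 100 µg/ml until day 10 and at 0 from then on. The day 10 high group (n = 4) came from cMCC mice, a separate strain in which cells with MHC class II make the peptide constitutively at a high level, without doxycycline. Naive AND cells (n = 5) were sorted on day 3 after transfer into mice without these transgenes. Strain and dose cannot be told apart for the high group. The day 30 cells were sorted in a series of their own, and the effects of day and of sort series cannot be told apart either.

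Values are log2 signals as deposited, and differences are log2 fold changes ± SE from limma, with p-values adjusted by Benjamini and Hochberg's method across every gene tested and a threshold of 0.05 for a call. Whether the arrays of 1 group stand for separate animals is not stated, and p-values then measure only the spread between samples, which may be technical. Arrays of a group limit the precision, and the dimmest signals understate fold changes. The mean of 4 T cell markers lay between 10.11 and 10.84 on all arrays. The mean of 7 B cell markers lay at 4.24 to 6.68 in the naive group and at 3.72 to 4.28 in every other group. The mean of 9 myeloid markers lay at 4.38 to 7.26 in the naive group and at 3.74 to 5.45 elsewhere. Naive replicates 3 and 4 stood apart, at 6.68 and 5.74 for B cell and 7.26 and 6.38 for myeloid markers, so comparisons with naive cells are also given without them. The part of such cells in the differences was not tested. In such sorted populations, fewer cells that express a gene and less RNA per cell cannot be told apart.

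The 250 bases before the start site of Jun, Fos, Batf and the heat-shock gene Hspa1a are shown because the first pair moved with Hspa1a across arrays and Batf did not. The sequences are from RefSeq (GRCm38.p6), written 5′ to 3′ on the gene's strand. Capitals mark matches, on either strand, to TGANTCA (the AP-1 site), TGACATCA (the AP-1-like site known from the Jun promoter), TGACG (the core of the cAMP response element) and GAANNTTC (a facing pair of heat-shock units). No 2 of these matches overlap in these promoters.
Jun, chr4:95052223-95052472, minus strand: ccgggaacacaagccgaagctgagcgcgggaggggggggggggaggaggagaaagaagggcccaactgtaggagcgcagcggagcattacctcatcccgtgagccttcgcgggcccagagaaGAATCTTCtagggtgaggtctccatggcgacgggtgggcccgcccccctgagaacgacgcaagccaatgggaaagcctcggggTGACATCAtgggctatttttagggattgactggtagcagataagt
Fos, chr12:85473640-85473889, plus strand: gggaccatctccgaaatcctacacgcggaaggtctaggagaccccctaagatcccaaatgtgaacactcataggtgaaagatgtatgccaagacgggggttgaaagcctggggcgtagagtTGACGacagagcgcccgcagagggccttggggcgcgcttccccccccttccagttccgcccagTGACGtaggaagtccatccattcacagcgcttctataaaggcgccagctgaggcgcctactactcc
Batf, chr12:85686470-85686719, plus strand: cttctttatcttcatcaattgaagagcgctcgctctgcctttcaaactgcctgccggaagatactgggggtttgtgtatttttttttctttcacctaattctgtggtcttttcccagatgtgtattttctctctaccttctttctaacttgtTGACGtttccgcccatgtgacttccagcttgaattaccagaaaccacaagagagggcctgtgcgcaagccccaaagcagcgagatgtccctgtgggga
Hspa1a, chr17:34972157-34972406, minus strand: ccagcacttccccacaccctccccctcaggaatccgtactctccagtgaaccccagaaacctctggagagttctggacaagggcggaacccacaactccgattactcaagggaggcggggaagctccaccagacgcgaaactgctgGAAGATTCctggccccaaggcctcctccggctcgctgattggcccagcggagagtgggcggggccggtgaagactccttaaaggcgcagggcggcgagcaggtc
Counted from the start site, the heat-shock pair lay at -128 to -121 in Jun and at -104 to -97 in Hspa1a. It was found in 6.69% of 32851 such windows and in 2 of the 9 family members, Jun and Fosl2. TGACATCA was found in 2.93% of windows and, in the family, in Jun. TGACG was found in 17.8% of windows and in 5 of the 9, Fos, Fosb, Junb, Batf and Atf3. TGANTCA was found in 6.75% of windows and in 0 of the 9.

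Batf, the small zipper factor that pairs with Jun proteins at Irf4 composite sites, stood apart in cells under constitutive high antigen. Its signal was 7.99, 8.68, 8.91 and 8.22 on the 4 day 10 high arrays, against 6.61, 7.18, 6.89, 7.44 and 6.92 on the day 10 none arrays. The lowest high array lay above every one of the other 39 arrays of the series, whose highest value was 7.90. Batf rose by a log2 fold change of 1.44 ± 0.25 against none (adjusted p = 5.83e-05), 1.19 ± 0.26 against int (adjusted p = 0.00313) and 1.47 ± 0.25 against naive (adjusted p = 3.51e-05). Without naive replicates 3 and 4 the last difference was 1.80 (adjusted p = 4.7e-06).

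No rise of Batf was called at the doses that doxycycline set. On day 10 the group means were 7.01 ± 0.31 without antigen, 7.37 ± 0.15 under low and 7.26 ± 0.48 under int antigen (SD). The int minus none difference was 0.25, with a 95% interval of -0.25 to 0.74. On day 30 the means were 7.28 ± 0.16 in none, 7.48 ± 0.27 in low and 7.39 ± 0.59 in int cells, and 7.14 ± 0.20 in off cells. The day 30 int minus none difference was 0.10 (interval -0.36 to 0.57). These groups and the naive cells (6.98 ± 0.53) formed an overlapping order in which no neighbours differed by more than their spread.

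**Figure D1:**
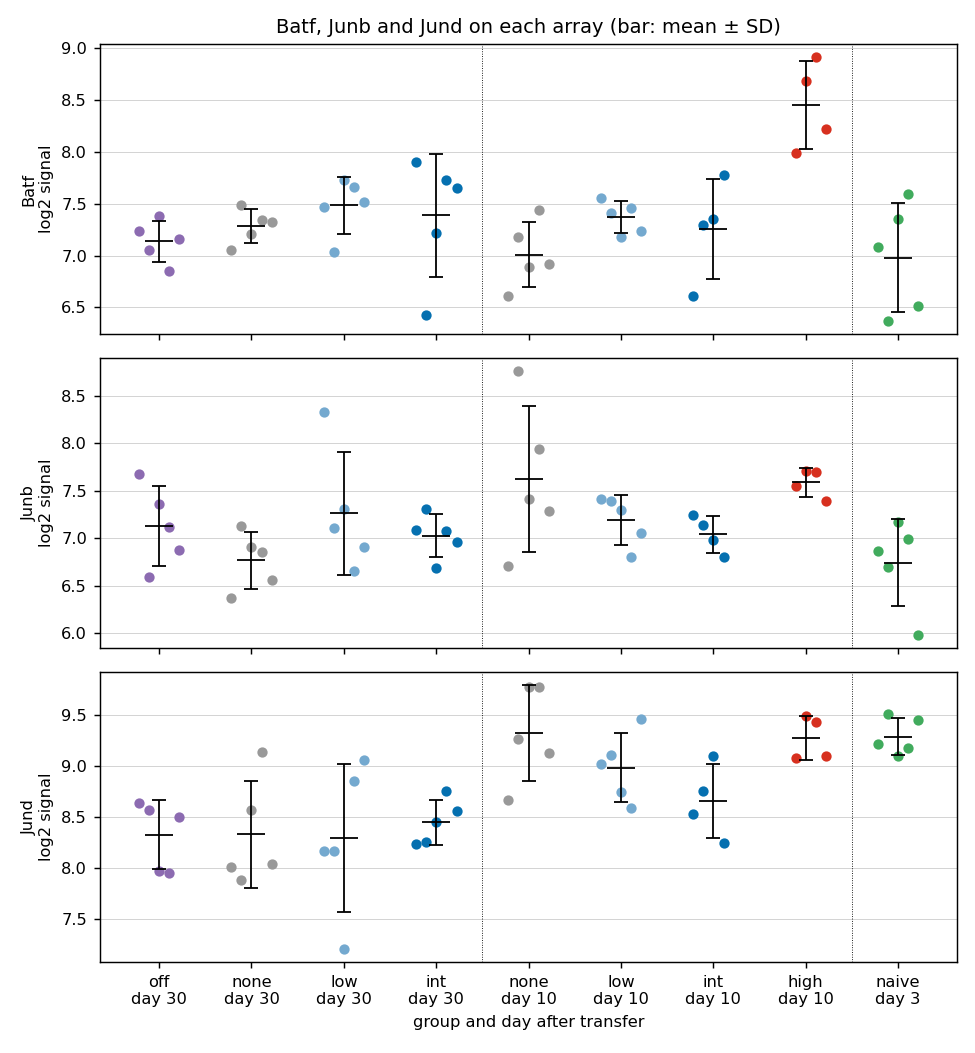
Log2 signal of Batf, Junb and Jund on each array (points), with the mean and SD of each group (bars), for the day 30, day 10 and naive groups from left to right. The 4 day 10 high arrays lie between 7.99 and 8.91 for Batf, above all others, and Jund lies lower on day 30 than in the none cells of day 10.

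Jun, which encodes the classic partner of Fos, showed the largest called difference of the family. It was 3.34, 3.83, 3.40 and 3.59 on the day 10 int arrays, against 4.57, 7.58, 6.23, 6.74 and 7.01 on the day 10 none arrays. All int arrays lay below all none arrays, and replicate 1 of the none group was its low exception. Jun fell by 2.89 ± 0.54 on the log2 scale in int against none (adjusted p = 0.000892). Against low cells, at 6.47, 7.16, 6.11, 5.33 and 6.04, it fell by 2.68 ± 0.54 (adjusted p = 0.00458). Neither call ended when single arrays were left out.

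The high group was split. In it Jun was 5.57, 5.37 and 6.04 on 3 arrays and 3.18 on replicate 5. The high minus none difference was -1.39 ± 0.54 (adjusted p = 0.148) and the high minus int difference 1.5 ± 0.57 (adjusted p = 0.177), neither of them called. Single arrays decided both: without none replicate 1 the first was -1.85 (adjusted p = 0.0345), and without high replicate 5 the second was 2.12 (adjusted p = 0.0214). Naive cells had 4.52, 5.29, 4.94, 4.23 and 5.64, below all but 1 of the day 10 none arrays. The order of group means ran from 6.48 in day 30 low to 3.54 in day 10 int, and between neighbours only the last pair, naive at 4.92 and day 10 int, did not overlap.

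By day 30 the low Jun signal of int cells was no longer uniform. The 5 day 30 int arrays had 7.20, 6.90, 6.13, 3.78 and 4.33, a split group, against 3.34 to 3.83 on day 10. The difference was 2.13 ± 0.54 (adjusted p = 0.0457), and for 7 of the 9 arrays, leaving that array out ended the call (adjusted p up to 0.151). Day 30 none cells had 4.90, 4.98, 6.53, 6.65 and 4.88, and int minus none on day 30 was 0.08 ± 0.51 (95% interval -0.95 to 1.11, adjusted p = 0.972). Off cells were the most even group, at 6.10, 6.03, 6.19, 5.89 and 6.33.

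Fos, the immediate early gene that gives AP-1 its strongest activating partner, was highest in day 10 none cells. It was 3.98, 3.48, 3.92 and 3.60 on the int arrays, against 3.63, 5.99, 5.34, 5.96 and 5.32 on the none arrays. Again none replicate 1 was low and fell within the int range. Fos fell by 1.5 ± 0.35 (adjusted p = 0.014). That call ended without int replicate 2 or 4 or without none replicate 2 or 4 (adjusted p up to 0.0692). Against naive cells, at 3.75, 3.62, 3.79, 3.85 and 3.49, Fos rose by 1.55 ± 0.33 in day 10 none cells (adjusted p = 0.00256, and 1.63, adjusted p = 0.0155, without naive replicates 3 and 4).

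Fos in day 30 none cells lay near the naive level (difference 0.01 ± 0.33, 95% interval -0.66 to 0.68). Both means, 3.71 and 3.70, lie near 3.34, the median of all signals, where differences can be understated. The values were 4.01, 3.57, 3.63, 3.47 and 3.87 on day 30, a fall of 1.54 ± 0.33 against day 10 none (adjusted p = 0.00651). Myeloid markers differed in both directions in this comparison, in which Jund fell too. Of 9, 1 rose and 2 fell, where 3.43% of all genes were called. Cst3 rose by 0.99 ± 0.23 (adjusted p = 0.0132). S100a8 fell by 3.12 ± 0.79 (adjusted p = 0.0191) and S100a9 differed by -2.86 ± 0.67 (adjusted p = 0.0117). The mean level of the 9 was 3.74 to 4.56 in day 30 none cells, against 4.28 to 5.38 in day 10 none cells. Their part in the Fos and Jund differences was not tested. In int against none on day 10, limma called 0 of the 9 (1 at an unadjusted p under 0.05), where 1.24% of all genes were called. Their mean level was 4.06 to 4.67 in int cells, against the same 4.28 to 5.38 in none cells. In off against none on day 30, 2 of the 9 rose and 0 fell (0.266% of all genes called). S100a8 rose by 3.44 ± 0.79 (adjusted p = 0.0365) and S100a9 by 2.87 ± 0.67 (adjusted p = 0.0458). The part of these markers in the Fos difference there was not tested either. For Fos, the day 30 low, int and off groups each averaged 4.54, with ranges of 3.93 to 5.24, 3.54 to 5.38 and 3.69 to 5.09. Each exceeded day 30 none by 0.83 ± 0.33, and none of the 3 was called (adjusted p = 0.299 for low, 0.234 for int and 0.323 for off). The int effect on Fos thus had opposite signs on the days, and the test of that difference gave 2.33 ± 0.48 (adjusted p = 0.0241), a call that ended for 9 of the 19 arrays when that array was left out (adjusted p up to 0.0842).

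**Figure D2:**
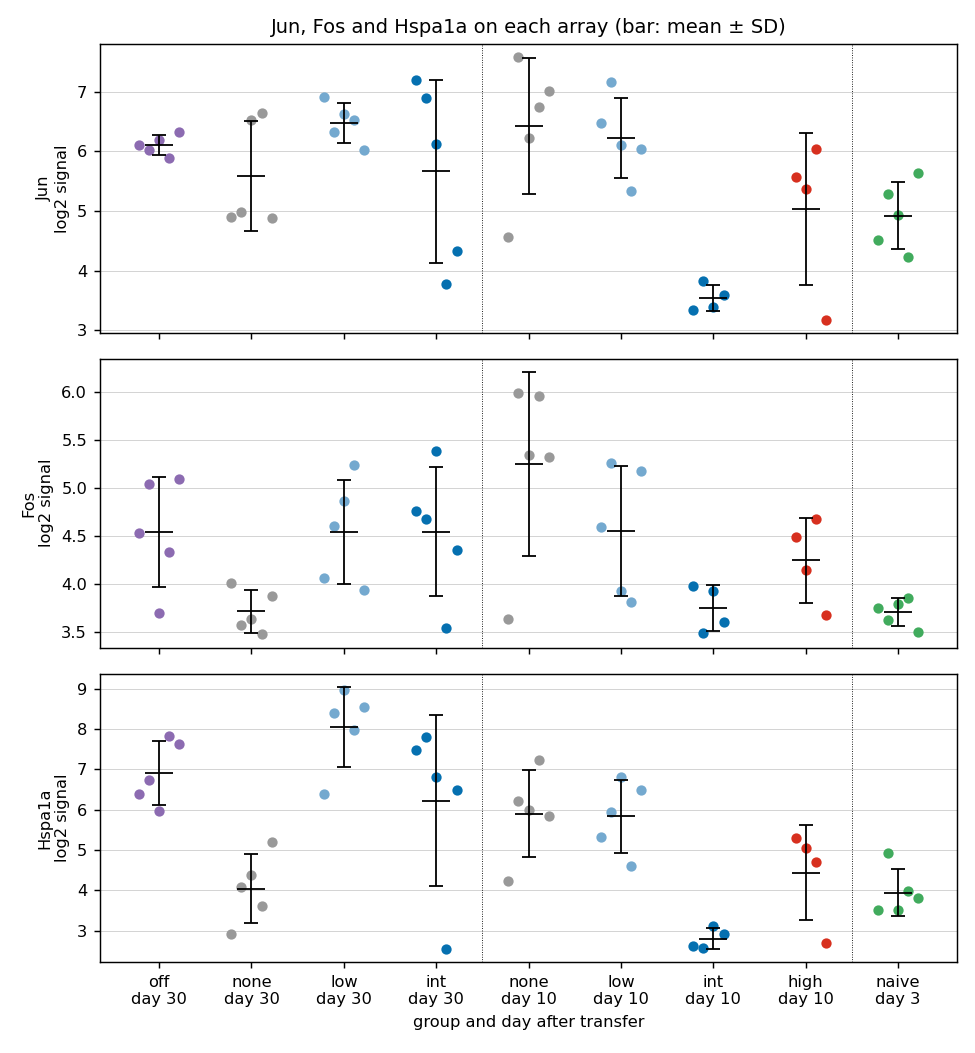
Log2 signal of Jun, Fos and Hspa1a on each array (points), with the mean and SD of each group (bars), for the day 30, day 10 and naive groups from left to right. All 3 genes are low on the 4 day 10 int arrays, and day 30 int replicate 4 is low in all 3 while the other day 30 int arrays spread upward.

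The other Jun genes moved less. Junb, which in T cells supports Th2 and Th17 programmes and pairs with Batf, was 6.71, 8.76, 7.41, 7.94 and 7.29 in day 10 none cells, against 6.87, 6.70, 7.17, 6.99 and 5.98 in naive cells. Here 4 of 5 none arrays lay above all naive ones. The difference was 0.88 ± 0.27 and just missed the threshold (adjusted p = 0.0562), and without none replicate 1 it was 1.11 (adjusted p = 0.0113). In high cells Junb was even, at 7.55, 7.71, 7.70 and 7.39, with a high minus naive difference of 0.85 ± 0.28 (adjusted p = 0.0806, and 1.07, adjusted p = 0.0467, without naive replicates 3 and 4).

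Jund, the Jun gene with steady expression in resting cells, was lower in day 30 none cells. It was 8.01, 7.88, 8.57, 9.14 and 8.04 in day 30 none cells, against 8.67, 9.27, 9.78, 9.78 and 9.13 in day 10 none cells. Of the day 30 arrays, 4 of 5 lay below all day 10 ones, and replicate 4 lay within their range. Jund fell by 1.00 ± 0.24 (adjusted p = 0.0164, and 0.0604 without day 10 none replicate 3). Against naive cells, at 9.22, 9.51, 9.10, 9.18 and 9.45, it fell by 0.96 ± 0.24 in day 30 none cells (adjusted p = 0.0131, and a log2 difference of -1.07, adjusted p = 0.0309, without naive replicates 3 and 4). The 4 day 30 groups averaged 8.29 to 8.45 whether or not antigen was kept. Between int cells of both days no fall was called. Day 10 int cells averaged 8.66, and the day 30 minus day 10 difference was -0.21 ± 0.26 (adjusted p = 0.838).

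A second Jund probe set, with a lower signal, gave a smaller difference. It averaged 5.73 ± 0.32 in day 30 none cells and 6.18 ± 0.30 in day 10 none cells, and 5.90 ± 0.21 in naive cells (SD, n = 5 each). In int cells its means went the other way, 5.49 ± 0.22 on day 10 (n = 4) and 5.82 ± 0.37 on day 30 (n = 5). With both probe sets averaged, the fall against day 10 none cells was 0.72 (adjusted p = 0.0162). The difference from naive cells was then -0.57 and no longer called (adjusted p = 0.0553).

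Fosb and Fosl2, the other Fos genes measured, were not called in any comparison with all arrays and the settings used throughout. Single left-out arrays or other settings brought calls. Fosb, an immediate early gene like Fos, lay at 2.57, 2.69, 3.00 and 3.10 in day 10 int cells, against 2.61, 5.18, 3.78, 3.22 and 3.84 in day 10 none cells. Its difference was -0.89 ± 0.29 (adjusted p = 0.153), and without none replicate 1 it was -1.16 (adjusted p = 0.017). Fosl2, which encodes Fra-2, lay at 4.26, 4.74, 5.17 and 4.95 in high cells, against 4.53, 4.09, 4.40, 4.51 and 4.32 in day 10 none cells, a difference of 0.41 ± 0.18 (adjusted p = 0.225). Batf3, known for its part in cross-presenting dendritic cells, and Atf3, a stress-induced repressor, stayed dim. Batf3 ranged from 2.55 to 3.54 and Atf3 from 2.73 to 3.83 over all 43 arrays, and their differences lay between -0.28 and 0.26 in all 17 contrasts.

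Counted over the 9 genes, calls were few, and the shares of all genes called stand beside them. In int against none on day 10, 0 members rose and 2 fell (Jun and Fos), where 1.24% of all genes were called (0.784% higher and 0.46% lower). The median difference was -0.58 over the 9 and -0.01 over all genes. In high against none, 1 rose (Batf) and 0 fell, where 5.25% of genes were called (2.77% higher and 2.48% lower), and without none replicate 1 the count was 3, with Fos and Jun lower. The medians were -0.10 over the 9 and 0.01 over all genes. In int against low, 1 fell (Jun), where 0.541% of genes were called (0.307% higher and 0.234% lower). In high against int, 1 rose (Batf), where 2.99% were called (1.4% higher and 1.59% lower), and without high replicate 5 the count was 2, with Jun higher. These comparisons share arrays with each other.

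In day 30 int against day 10 int, 1 member rose (Jun), where 0.712% of genes were called (0.347% higher and 0.365% lower). In day 30 none against day 10 none, 2 fell (Fos and Jund), where 3.43% were called (1.51% higher and 1.93% lower). The count was 3 without day 10 none replicate 1, with Junb lower as well (-1.08, adjusted p = 0.0251). The median difference was -0.53 over the 9 and 0.02 over all genes. The difference between the int effects of both days was called for 1 member (Fos), where 0.0902% of genes were called (0.0451% higher and 0.0451% lower).

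Against naive cells, 1 member rose in day 10 none cells (Fos), where 3.3% of genes were called (1.9% higher and 1.41% lower). It was 4 without none replicate 1 (Fos, Fosb, Jun and Junb) and 2 without naive replicate 3 (Fos and Junb). In day 30 none cells 1 fell (Jund), where 4.33% were called (1.98% higher and 2.35% lower), and without day 30 none replicate 3 Fosl2 fell as well (-0.59, adjusted p = 0.031). In high cells 1 rose (Batf), where 4.82% were called (2.91% higher and 1.9% lower), and without naive replicates 3 and 4 the count was 2, Junb and Batf. With 9 genes, each call is that of a single gene.

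limma called 0 members in 7 comparisons. These were low against none on day 10, where 0.00451% of genes were called, int against naive (3.15%) and all 5 comparisons within day 30. There the shares of all genes called were 0.654% for low against none, 2.21% for int against none, 0.546% for int against low, 0.266% for off against none and 0.464% for off against int. At an unadjusted p under 0.05 there was 1 member in low against none on day 10, 2 in int against naive, 1 each in low, int and off against none on day 30, and 0 in the remaining 2. Off minus int was 0.44 for Jun (95% interval -0.59 to 1.47) and -0.25 for Batf (-0.72 to 0.22). A missed threshold does not show that antigen withdrawal left the genes as they were.

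**Figure D3:**
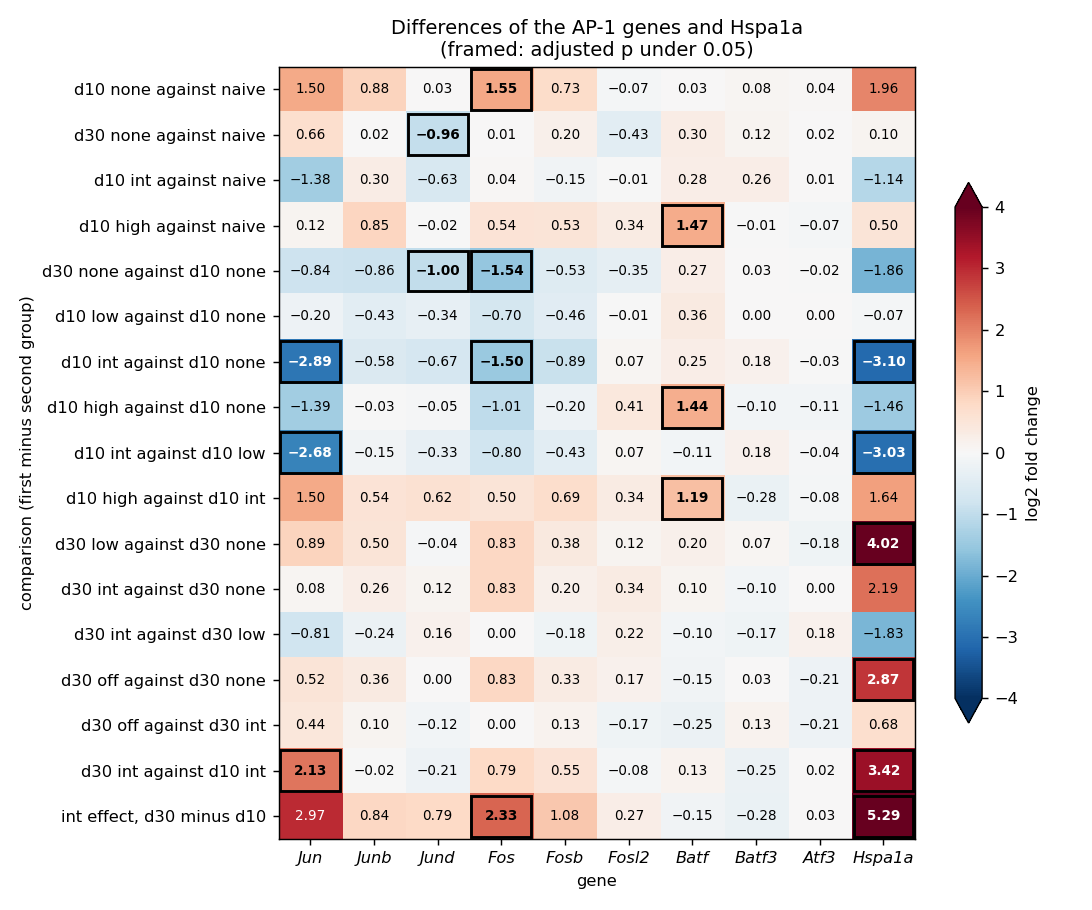
Log2 fold changes (first minus second group, colour and figures) of the 9 AP-1 genes and Hspa1a in the 16 comparisons and in the difference between the int effects of both days, with frames where the adjusted p was under 0.05. Frames fall on Jun, Fos, Jund and Batf among the family, and the Hspa1a column has the sign of the Jun column wherever Jun is framed.

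The spread of the family among arrays of 1 group was set beside that of Hspa1a, which encodes the inducible chaperone Hsp70 and is a marker of heat and handling stress. Hspa1a had a pooled within-group SD of 1.10 on the log2 scale. Jun came closest with 0.89, or 0.805 of it, followed by Fos (0.57), Fosb (0.46), Junb (0.44), Jund (0.42) and Batf (0.38). Atf3 (0.26), Fosl2 (0.25) and Batf3 (0.22) varied least. Of all genes, 99.6% had a smaller within-group SD than Jun and 97.2% a smaller one than Fos. Jun varied most in day 30 int cells (SD 1.54), where Hspa1a did too (SD 2.12), and its SD was above that of Hspa1a in 3 of 9 groups.

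The same arrays were often low in Jun, Fos and Hspa1a. Hspa1a was 4.22 on day 10 none replicate 1, against 5.85 to 7.22 on the other none arrays, where Jun (4.57) and Fos (3.63) were low too. It was 2.70 on day 10 high replicate 5, against 4.70 to 5.29 on the other high arrays, where Jun was 3.18. It was 2.54 on day 30 int replicate 4, against 6.49 to 7.80 on the others, where Jun was 3.78 and Fos 3.54. The array lowest in Hspa1a was also the lowest in Fos in 6 of 9 groups and in Jun in 4 of 9. The array highest in Hspa1a was the highest in 0 of 9 groups for either gene. Several arrays did not follow. Day 30 int replicate 5 had Hspa1a at 6.49 and Jun at 4.33. Day 30 low replicate 1 had a deviation from its group mean of -1.66 in Hspa1a and 0.43 in Jun. Day 30 none replicate 1 had a deviation of -1.12 in Hspa1a and 0.30 in Fos.

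As a description over 43 arrays that share labelling and sort series, deviations from the group mean in Hspa1a correlated with those of Jun and of Fos, each at Pearson r = 0.57. Spearman's rho was 0.36 for Jun and 0.43 for Fos. Leaving out the 2 arrays farthest in Hspa1a gave r = 0.38 for Jun and 0.48 for Fos. Among 22179 other genes, Fos was the fourth and Jun the fifth most correlated with Hspa1a, after Hspa1b as the first. Only 17 genes reached r = 0.5. Without day 30 int replicate 4 alone, r was 0.43 for Jun and 0.49 for Fos. Within the day 30 arrays r was 0.50 for Jun and 0.56 for Fos (n = 20), and within the day 10 arrays 0.72 and 0.68 (n = 18). Fosb followed with r = 0.37, while Junb (0.04), Jund (0.03), Fosl2 (0.13), Batf3 (0.17), Atf3 (0.09) and Batf (-0.12) did not reach 0.2. For Junb and Jund r was -0.24 and -0.25 within the day 30 arrays, and 0.51 and 0.57 within the day 10 arrays. Hspa1a and Hspa1b are near-identical genes whose probes may share signal. Of the 11 other heat-shock genes measured, only Hspa1b reached r = 0.5 with Hspa1a (0.76). Their median r with Hspa1a was 0.07 and the lowest -0.30, for Hspa8. With Hspa1b, r was 0.41 for Jun and 0.35 for Fos. Correlations of Jun and Fos with the remaining heat-shock genes are not given here.

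**Figure D4:**
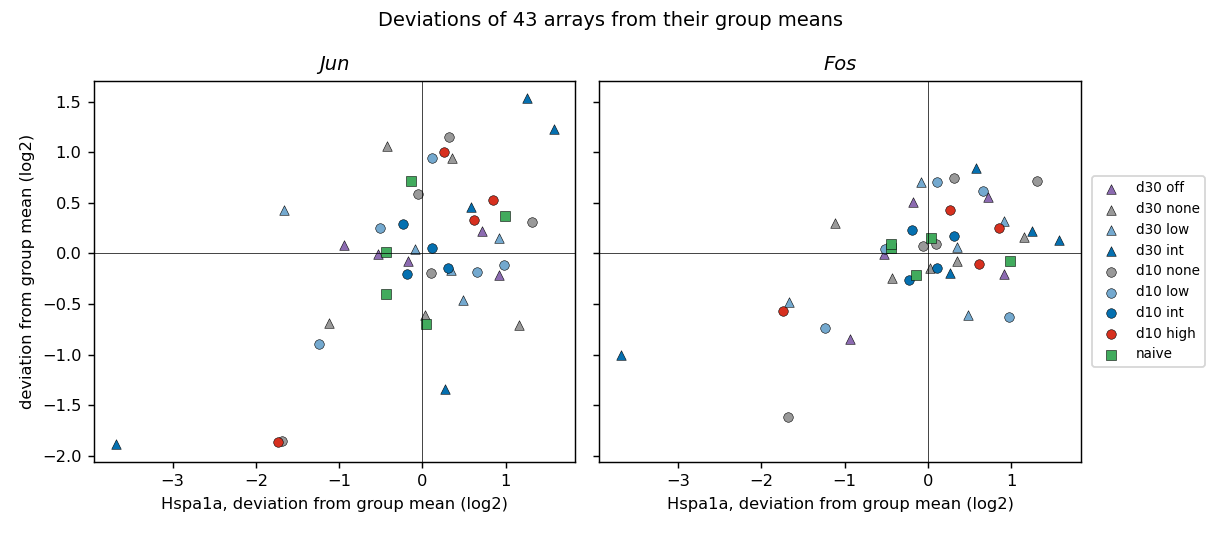
Deviation of Jun (left) and Fos (right) from the group mean plotted against that of Hspa1a, in log2 units, 1 point for each of 43 arrays, with shape for the day and colour for the group. Day 30 int replicate 4, day 10 high replicate 5 and day 10 none replicate 1 lie to the left and low in both genes, while day 30 low replicate 1, at -1.66 in Hspa1a, lies at 0.43 in Jun (r = 0.57 for each gene).

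Group means moved together as well. Hspa1a was 2.61, 2.57, 3.11 and 2.91 in day 10 int cells, against 4.22, 6.22, 6.0, 7.22 and 5.85 in day 10 none cells, a log2 difference of -3.10 ± 0.67 (adjusted p = 0.00544). In day 30 int against day 10 int it was higher by 3.42 ± 0.67 (adjusted p = 0.00494), as Jun was. Over the 9 group means r with Hspa1a was 0.86 for Jun and 0.72 for Fos. The genes parted on day 30: Hspa1a rose by 4.02 ± 0.63 in low against none (adjusted p = 0.000149) and by 2.87 ± 0.63 in off against none (adjusted p = 0.024), where Jun was 0.89 ± 0.51 and 0.52 ± 0.51 higher without a call. Of 12 heat-shock genes measured, 0 rose and 2 fell in int against none on day 10 (1.24% of all genes called). These were Hspa1a and Hspa1b, and the list median was -0.09. In low against none on day 30, 3 rose and 0 fell (0.654% of all genes called): Hspa1a, Hspa1b and Hsp90aa1.

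With the Hspa1a level as a covariate in the fit, the calls of Jun and Fos ended and those of Batf and Jund did not. Jun in int against none was then -1.47 ± 0.56 (adjusted p = 0.402) and in int against low -1.30 ± 0.56 (adjusted p = 0.781). Fos in int against none was -0.59 ± 0.37 (adjusted p = 0.783), and in none against naive 0.97 ± 0.31 (adjusted p = 0.0908). The difference between the int effects on Fos was 0.78 ± 0.55 (adjusted p = 0.878). Batf in high against none was 1.38 ± 0.26 (adjusted p = 0.000365), and Jund in day 30 none against day 10 none was -0.98 ± 0.27 (adjusted p = 0.0403). The covariate acts through 1 slope per gene over all groups, 0.46 for Jun, 0.29 for Fos, 0.01 for Jund and -0.04 for Batf (log2 per log2 of Hspa1a). With slopes near 0 the Batf and Jund estimates could hardly change, so their kept calls are no test of handling. For Jund the slope spans an r of 0.57 within day 10 and -0.25 within day 30. Because Hspa1a itself differed between the groups, this fit also takes out any antigen effect that Jun, Fos and Hspa1a share. The part of sort handling in the Jun and Fos differences was not tested.

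**Figure D5:**
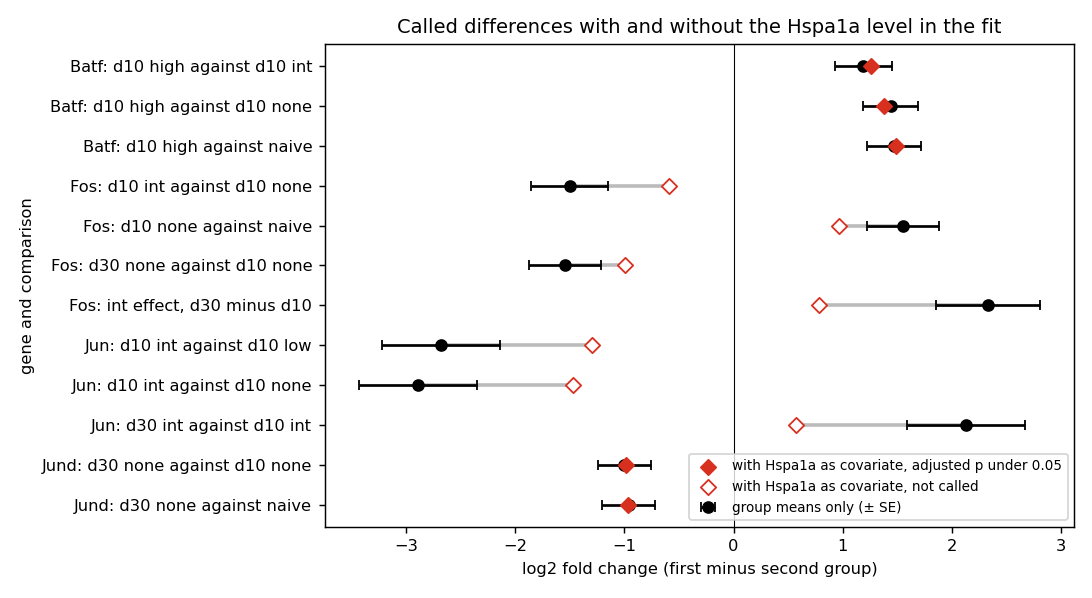
Log2 fold changes of the 12 called differences of AP-1 genes from group means alone (black circles, ± SE) and with the Hspa1a level in the fit (red diamonds, filled where the adjusted p was under 0.05). The diamonds of Jun and Fos lie nearer to 0 and are open, those of Batf and Jund are filled and close to the circles.

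Genes for the partners of AP-1 at composite sites rose in several comparisons and fell in others. Of 5 partner genes, 2 rose and 0 fell in int against none on day 10 (1.24% of all genes called), 2 and 0 in high against none (5.25%), 2 and 0 in low against none on day 30 (0.654%) and 3 and 0 in int against none on day 30 (2.21%). In day 10 none against naive, where Fos was called higher, 2 rose and 0 fell (3.3%), Nfatc2 by 0.93 ± 0.21 (adjusted p = 0.00545) and Nfatc3 by 0.72 ± 0.13 (adjusted p = 0.000285). Irf4, the Batf partner, averaged 6.94 ± 0.15 in day 10 int, 5.91 ± 0.70 in day 10 high and 4.12 ± 0.33 in day 10 none cells. It rose by 2.82 ± 0.30 in int (adjusted p = 6.43e-08) and by 1.79 ± 0.30 in high cells (adjusted p = 5.79e-05). Batf was called in high and not in int, and on day 10 the group with the highest mean was int for Irf4 and high for Batf. Nfatc1, an NFAT factor, rose by 0.93 ± 0.22 in high cells (adjusted p = 0.00556). In high against int on day 10, where Batf was called higher, 0 of the 5 rose and 2 fell (2.99%). Their differences were -1.46 ± 0.33 for Irf8 (adjusted p = 0.00474) and -0.49 ± 0.15 for Nfatc3 (adjusted p = 0.0499). In off against int on day 30 also 0 rose and 2 fell (0.464%), with Irf4 at -2.03 ± 0.29 and Irf8 at -1.29 ± 0.30.

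Among 17 measured bZIP genes outside the 9, Nfil3, which encodes a repressor induced by cytokines and receptor signals, rose by 1.17 ± 0.29 in int (adjusted p = 0.0271) and by 2.96 ± 0.29 in high cells (adjusted p = 7.23e-10) against day 10 none. It was the only one of the 17 called in int, where 1.24% of all genes were called. In high against none 2 rose and 1 fell (5.25% of all genes called). Maf rose by 1.70 ± 0.49 (adjusted p = 0.0276), and Bach2, which competes with AP-1 for its sites, fell by 0.78 ± 0.22 (adjusted p = 0.027). On day 30, 3 rose and 0 fell in int against none (2.21%), Maf by 3.27 ± 0.46 (adjusted p = 5.32e-06), Nfil3 by 1.90 ± 0.28 (adjusted p = 9.74e-06) and Jdp2, an AP-1 repressor, by 1.04 ± 0.27 (adjusted p = 0.0254).

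Immediate early genes outside the family split. Of 21, 4 rose and 3 fell in int against none on day 10 (1.24% of all genes called), with a list median of 0.23 against -0.01 over all genes. Nr4a1 (2.79 ± 0.29, adjusted p = 6.43e-08) and Egr2 (1.82 ± 0.31, adjusted p = 0.000191), both induced by receptor signalling, rose, while Ppp1r15a, a stress-response phosphatase subunit, fell by 1.68 ± 0.31 (adjusted p = 0.000776). Naive cells averaged 8.46 ± 0.29 for Nr4a1, near the 8.35 ± 0.51 of int cells, with none cells at 5.56 ± 0.48 (SD). For Egr2 the means were 6.76 ± 0.27 in naive, 7.83 ± 0.25 in int and 6.01 ± 0.41 in none cells. In high against none 7 rose and 3 fell (5.25%), with Nr4a2 at 2.38 ± 0.35 (adjusted p = 3.42e-06). In int against none on day 10, Jun and Fos were called lower and Nr4a1 and Egr2 higher. In high against none neither Jun (adjusted p = 0.148) nor Fos (adjusted p = 0.0938) was called. With Hspa1a, the within-group r of these 21 genes ran from -0.37 to 0.41, with a median of 0.05.

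Of 13 measured kinases and factors upstream of AP-1, 1 rose and 0 fell in int against none on day 10, where 1.24% of all genes were called (Elk3, 1.05 ± 0.22, adjusted p = 0.00345). In high against none, where 5.25% were called, 1 rose and 1 fell (Rasgrp1, an activator of Ras, by 1.21 ± 0.16, adjusted p = 4.11e-07). Of 12 genes that damp the pathway, 1 rose in int and 3 in high in the same comparisons, and 0 fell. Spry2, an inhibitor of Ras signalling, rose by 3.10 ± 0.21 in high cells (adjusted p = 1.16e-14), and Dusp6, the ERK phosphatase, by 1.11 ± 0.27 in int (adjusted p = 0.0194) and by 1.57 ± 0.27 in high cells (adjusted p = 6.46e-05).

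Of 20 genes that AP-1 or Batf sites are known to drive in T cells, 8 rose and 0 fell in int against none on day 10 (1.24% of all genes called), 11 and 0 in high (5.25%), 7 and 0 in low against none on day 30 (0.654%) and 9 and 0 in int against none on day 30 (2.21%). limma called 0 of the 20 in low against none on day 10 (0.00451%) and in off against none on day 30 (0.266%), where 2 and 8 had an unadjusted p under 0.05. In the first 4 of these comparisons their medians were 0.90, 0.96, 0.79 and 1.04, where all genes had medians of -0.01, 0.01, 0.00 and -0.01. Like the other gene lists here, this list was chosen with earlier results of these data known. Its counts and medians therefore describe the listed genes and cannot serve as a test of AP-1 activity. Il21, a cytokine gene with Batf and Irf4 sites, rose by 3.16 ± 0.44 in int (adjusted p = 6.9e-06) and by 5.98 ± 0.44 in high cells (adjusted p = 1.33e-13). In these 4 comparisons Jun and Fos were called lower in int on day 10 and were not called in the others. In high against none Jun was -1.39 ± 0.54 and Fos -1.01 ± 0.35. On day 30 Fos was 0.83 ± 0.33 higher in low and in int cells. Jun was 0.89 ± 0.51 higher in low and 0.08 ± 0.51 higher in int cells of day 30. The part of Jun and Fos in the rises of the listed genes was not tested. In off against int 0 rose and 4 fell (0.464% of all genes called), Il21 by 2.29 ± 0.41 (adjusted p = 0.00157). Against naive cells, 1 rose and 2 fell in day 10 none cells (3.3%), where Fos was called higher. The counts were 1 and 3 in day 30 none (4.33%), 10 and 1 in day 10 int (3.15%) and 11 and 1 in day 10 high cells (4.82%).

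The 9 group means of Batf were most like those of Ptprj (r = 0.98), Pcmt1 (0.962) and Ajuba (0.958), among genes whose group means spanned at least 1 log2 unit. Those of Jun were most like Ppp1r15a (0.901), Hspa1b (0.887) and Sytl3 (0.884). Those of Jund were most like the RNA component of telomerase, Terc (0.966), Eif4a2 (0.957) and Scarna10 (0.945), and those of Fos like Eif3j1 (0.845), Cc2d1a (0.808) and Rabif (0.802). Over the deviations of 43 arrays the closest genes were Hcst (0.689) and Orai3 (0.646) for Batf, Ppp2r2cos (0.623) for Jun and Rpl41 (0.595) for Fos, with Hspa1a the third for both Jun and Fos. Within the family, Fos and Jun deviated together most (r = 0.54), then Fos and Fosb (0.42), Fosb and Jun (0.39), Fosb and Junb (0.38) and Jun and Junb (0.35).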

How the data were processed

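RNA of sorted cells was amplified, labelled with biotin and hybridized to 43 single-colour arrays, per the labels' protocols. The authors deposited log2 signals per probe set, from 1.46 to 13.87. That the scale is log2 was inferred from this range. Background correction and normalization: not given in the sources used here. The medians of the arrays ran from 3.28 to 3.44.

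Of 41345 probe sets, 23521 had 1 gene symbol, 1814 several and 16010 none. Only the first were used, with 1 probe set per gene, and 22180 genes were tested without a filter. RefSeq held 23328 of the 23521 by gene ID, and 193 kept the name given. limma 3.58.1 in R 4.3.3 fitted a mean for each of 9 groups (eBayes with a variance trend). The fit was tested on simulated data.

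The members and gene lists were chosen with earlier results of these data known. Genes named beside the members are called list members, at most the 4 largest changes of a list, and the genes most like a member. Singled-out arrays were chosen after values were seen. Alternatives were normalization, variance model, weights, replicate block, filter, probe sets, samples in the fit, the Hspa1a covariate and left-out arrays. Listed genes without a usable probe set were not analysed here, among them all 3 erythroid markers.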

Additional observations from a re-analysis of the deposited data

Results flagged for a closer look

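Values far from the rest of their group by Dixon's gap test at its 95% level were looked for in 10 genes (the family and Hspa1a) and 9 groups, or 90 groups of values, of which chance flags about 1 in 20. There were 4 such values. Fos was 3.63 on day 10 none replicate 1, against 5.32 to 5.99 on the others of that group. On the same array Batf3 was 2.55, against 3.18 to 3.37. Fosb was 3.62 on day 10 low replicate 2, against 3.10 to 3.23. Hspa1a was 2.54 on day 30 int replicate 4, against 6.49 to 7.80.

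The effect of int antigen on Fos differed between the days by 2.33 ± 0.48 in the interaction test (adjusted p = 0.0241), being negative on day 10 and positive, without a call, on day 30.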

How the results depend on the processing

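The counts of called AP-1 genes changed as follows, and the cause was not tested except where fewer arrays entered. With the Hspa1a level as a covariate the count was 0 in day 10 none against naive (1 without it), int against none (2) and int against low on day 10 (1), day 30 int against day 10 int (1) and the difference between the int effects (1), and 1 in day 30 none against day 10 none (2). Without 4 arrays (naive replicates 3 and 4, day 10 none replicate 4, day 10 high replicate 2) it was 0 in day 10 none against naive, 1 in int against none on day 10 and 0 for the difference between the int effects. No ground for leaving out the last 2 arrays is given here. Fos was 5.96 on none replicate 4, while none replicate 1, at 3.63 and flagged above, stayed in. Array quality weights gave 4 in day 10 none against naive, 2 in high against none and 3 in int against none on day 10, and the filter on low values gave 2 in day 10 none against naive and 3 in day 30 none against day 10 none. The mean of all probe sets gave 0 in day 30 none against naive. Fits of only the groups compared gave 1 in day 10 int against naive (Jun, -1.38, adjusted p = 0.00962), and 0 in day 30 int against day 10 int and for the difference between the int effects. Centring array medians, or no variance trend, gave 0 in day 30 int against day 10 int. Without naive replicates 3 and 4, high against naive gave 2.

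Leaving out 1 array at a time, the count ran from 1 to 4 in day 10 none against naive, from 1 to 2 in day 30 none against naive and in high against int, and from 1 to 3 in day 30 none against day 10 none, int against none and high against none on day 10. It ran from 0 to 1 in day 30 int against day 10 int, from 0 to 2 for the difference between the int effects, and from 0 to 2 for genes with r of at least 0.5 to Hspa1a. The 3 Batf calls held in all 11 settings tried and on leaving out each array. No difference that was called changed direction. Of 141 differences not called, 13 were called under some alternative.

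Replicate numbers did not pair the arrays: of 164 same-numbered pairs, 5 had deviations correlated above 0.1 (-0.187 to 0.208). With the replicate number as a block no call changed, and Jun in int against none was -2.98 (adjusted p = 0.000722), Batf in high against none 1.43 and the Fos difference between the int effects 2.34 (adjusted p = 0.0392). The precision is limited by 4 or 5 arrays a group, and Batf3, Atf3 and Fosb lie near the median of all signals. So do Jun in day 10 int cells (mean 3.54) and Fos in day 10 int (3.74), day 30 none (3.71) and naive cells (3.70).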
